A study of Homo sapiens with 6 samples.

Results

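The RAB small GTPases were taken as the rows of the deposited gene table that are typed as protein-coding and carry a symbol made of RAB, a number and at most 1 letter. The rule found 63 genes among the 58302 of the table. It leaves out the RAB effectors, the RAB-like proteins, the pseudogenes and the readthrough genes such as ISY1-RAB43. RNA was sequenced from Hs766T cells, a long-established line of human pancreatic cancer, spelled HS7666T in the sample titles and Hs766T in the cell line label, in 3 libraries of cells with raised DDX18, labelled ex-DDX18, and 3 libraries of control cells whose titles read plvx and whose genotype is given as WT. The comparison asks how high DDX18, a nucleolar RNA helicase of ribosome assembly, is accompanied by other transcripts. The sources used here do not give the vector, its promoter, the number of clones or whether the libraries of a group came from separate cultures. P-values therefore cover the spread among these 6 libraries, part or all of which may be technical.

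RAB proteins are the largest branch of the RAS superfamily. Each switches between a GTP-bound form, which sits on a membrane through a prenylated tail and recruits effectors such as tethers and motors, and a GDP-bound form, which a chaperone called GDI extracts into the cytosol. Different RAB proteins mark different compartments, so the set that a cell transcribes describes its routes of secretion, endocytosis, recycling and degradation. In the exocrine pancreas RAB3D and the RAB27 proteins are known for their place on secretory granules.

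Library totals lay between 15911875 and 16207995 counts, and 22132 to 23286 genes had a count. DDX18 itself was at 187.2, 197.4 and 176.9 CPM in the DDX18 libraries, against 89.4, 82.4 and 98.3 CPM in the plvx libraries. CPM here means counts scaled to a common library size after TMM normalisation. DDX18 rose 2.08-fold (edgeR, adjusted p = 0.00982), and each library labelled DDX18 lay above each plvx library. The adjusted p was 0.0544 without DDX18 replicate 2 and 0.0643 without plvx replicate 2. Of 8 ductal and epithelial markers, 7 averaged at least 1 CPM, and KRT19 did not. Of 7 acinar markers, PRSS1, CPA1, CPB1, CELA3A, PNLIP and AMY2A were at 0 in all 6 libraries, and BHLHA15 averaged at least 1 CPM. The endocrine markers INS, GCG, SST and PPY were also at 0 in all 6 libraries, and CHGA averaged below 1 CPM. In the immune and endothelial lists only CD68 and VWF averaged at least 1 CPM. The 6 fibroblast markers summed to 168.6 to 173.7 CPM in DDX18 cells and 162.5 to 173.9 CPM in plvx cells, with COL1A2 at 0. Of them, COL1A1, DCN and PDGFRB averaged at least 1 CPM, and COL3A1 and LUM did not. All 6 libraries are of the Hs766T line. In bulk RNA, a marker transcribed in few cells cannot be told from one transcribed weakly in all.

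Hs766T cells carried RAB transcripts across a wide range of levels. Levels were compared between genes as the deposited FPKM, which divides counts by a gene length. Of the 63 genes, 39 averaged at least 1 FPKM over the 6 libraries, 16 at least 10 FPKM and 1 at least 100 FPKM. That gene was RAB1B, which drives traffic from the endoplasmic reticulum to the Golgi, with 164.4, 184.6 and 186.7 FPKM in the DDX18 libraries and 180.8, 179.3 and 160.4 FPKM in the plvx libraries. It took 16.8% to 18.4% of all RAB CPM with DDX18 and 16.7% to 19.4% with plvx. RAB7A, the GTPase of late endosomes and lysosomes, came next at 61.2, 54.6 and 57.0 FPKM with DDX18 and 52.6, 40.1 and 43.5 FPKM with plvx. No library brought RAB7A near RAB1B.

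The next places were held by RAB32, which acts on lysosome-related organelles and mitochondria (34.0, 35.4 and 35.6 FPKM with DDX18, 38.8, 31.7 and 30.6 FPKM with plvx), and by RAB14, which works between the Golgi and endosomes (36.9, 31.2 and 32.3 FPKM with DDX18, 31.1, 34.1 and 37.3 FPKM with plvx). These levels overlapped each other. RAB10, a GTPase of transport to the plasma membrane, had 26.7, 27.3 and 24.3 FPKM with DDX18 and 25.2, 25.8 and 27.9 FPKM with plvx. RAB5C, one of the early endosome GTPases, had 18.4, 36.4 and 34.1 FPKM with DDX18 and 20.7, 16.6 and 27.3 FPKM with plvx, so its libraries ran from below RAB11B (23.0 FPKM on average) to the level of RAB14. When counts were divided by the merged exon length of GENCODE 29 instead, 5 of these 6 genes stayed among the first 6. RAB34 moved to place 3 from place 12, and RAB32 to place 7.

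**Figure D1:**
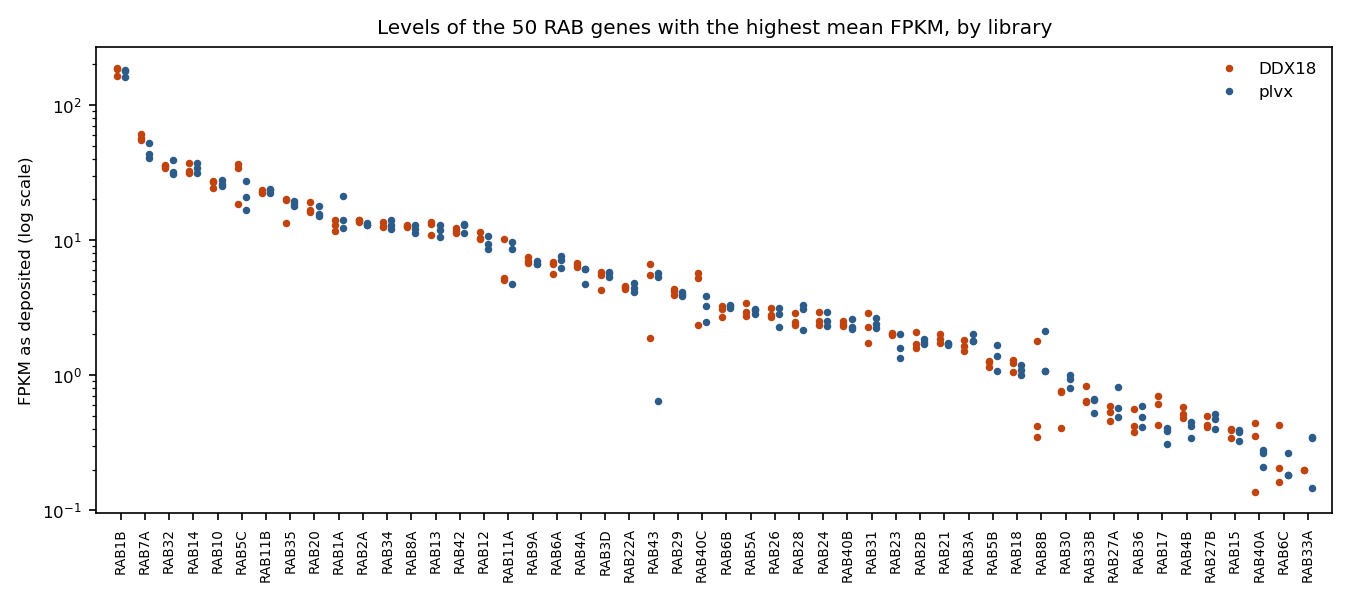
FPKM as deposited (log axis) of the 50 RAB genes with the highest mean, ordered by that mean. Points are single libraries, DDX18 left and plvx right of each position. RAB1B stands apart at 160.4 to 186.7 FPKM, and most genes show DDX18 and plvx points at the same height. Wide columns include those of RAB43, RAB8B, RAB40A, RAB6C, RAB30, RAB40C and RAB5C. Libraries at 0 cannot be drawn on the log axis.

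At the other end, 13 genes had too few counts to be tested, with at most 7 counts in any library. RAB9B, RAB39B and RAB44 had 0 counts in all 6 libraries, which at this depth allows up to 0.184 to 0.193 CPM per library (3 counts each, counting error only). RAB25, the epithelial relative of RAB11, had 1, 0 and 4 counts in the DDX18 libraries and 2, 0 and 0 counts in the plvx libraries. The other untested genes were RAB3B, RAB3C, RAB6D, RAB19, RAB33A, RAB37, RAB38, RAB39A and RAB41. Among these, RAB3B, RAB3C and RAB37 belong to regulated secretion and RAB38 to melanosome biogenesis.

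Promoter windows were available for 50 of the 63 genes, as RefSeq sequences on GRCh38.p14 from 250 bases before to 50 bases after the annotated start. The windows of RAB1B (chr11:66268389-66268688, plus strand) and RAB7A (chr3:128725933-128726232, plus strand) are shown for the genes with the highest levels, and those of RAB25 (chr1:156060910-156061209, plus strand) and RAB27B (chr18:54717607-54717906, plus strand) for epithelial and secretory genes that were nearly silent or low. Capitals mark CpG pairs.
RAB1B: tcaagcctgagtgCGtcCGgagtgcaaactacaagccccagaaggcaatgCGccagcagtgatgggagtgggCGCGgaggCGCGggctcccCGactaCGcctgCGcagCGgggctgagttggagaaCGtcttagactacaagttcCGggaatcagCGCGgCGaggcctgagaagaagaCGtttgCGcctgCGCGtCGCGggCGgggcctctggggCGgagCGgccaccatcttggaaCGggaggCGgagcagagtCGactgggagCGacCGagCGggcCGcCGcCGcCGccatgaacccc
RAB7A: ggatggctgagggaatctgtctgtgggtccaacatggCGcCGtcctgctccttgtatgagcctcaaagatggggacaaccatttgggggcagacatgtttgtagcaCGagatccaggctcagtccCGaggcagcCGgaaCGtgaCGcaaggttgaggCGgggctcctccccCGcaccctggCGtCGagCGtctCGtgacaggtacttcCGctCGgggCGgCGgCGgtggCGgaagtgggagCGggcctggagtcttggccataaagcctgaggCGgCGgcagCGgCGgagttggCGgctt
RAB25: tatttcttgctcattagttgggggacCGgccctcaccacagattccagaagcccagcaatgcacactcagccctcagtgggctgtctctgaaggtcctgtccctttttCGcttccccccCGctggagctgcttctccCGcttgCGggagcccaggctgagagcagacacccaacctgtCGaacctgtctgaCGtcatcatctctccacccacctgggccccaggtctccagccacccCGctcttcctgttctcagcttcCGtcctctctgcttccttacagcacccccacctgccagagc
RAB27B: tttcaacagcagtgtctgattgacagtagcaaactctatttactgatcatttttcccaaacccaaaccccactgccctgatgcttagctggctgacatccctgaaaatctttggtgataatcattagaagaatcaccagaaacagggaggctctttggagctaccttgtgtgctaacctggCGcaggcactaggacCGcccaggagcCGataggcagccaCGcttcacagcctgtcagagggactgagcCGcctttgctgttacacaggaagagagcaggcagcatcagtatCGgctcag
The RAB1B window holds 35 CpG pairs and that of RAB7A 25, against 9 in RAB25 and 6 in RAB27B. Over the 42 tested genes with a window the median was 29 CpG pairs, against 15.5 over 8 untested genes and 14 over 27305 genes with a window. The share of windows with at least 10 CpG pairs was 88.1% in the tested and 87.5% in the untested genes. Single genes departed from the medians in both directions. RAB42 averaged 12.1 FPKM with 7 CpG pairs, and RAB9B and RAB39A were at or near 0 with 31 CpG pairs each. The GC box GGGCGG was present on either strand in 39 of the 50 RAB windows (78%) and in 44.6% of all windows. TATAAA was present in 4 (8%), those of RAB40A, RAB6C, RAB7B and RAB6D, and in 12% of all windows. A match describes these letters in this window and is not a binding site.

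**Figure D2:**
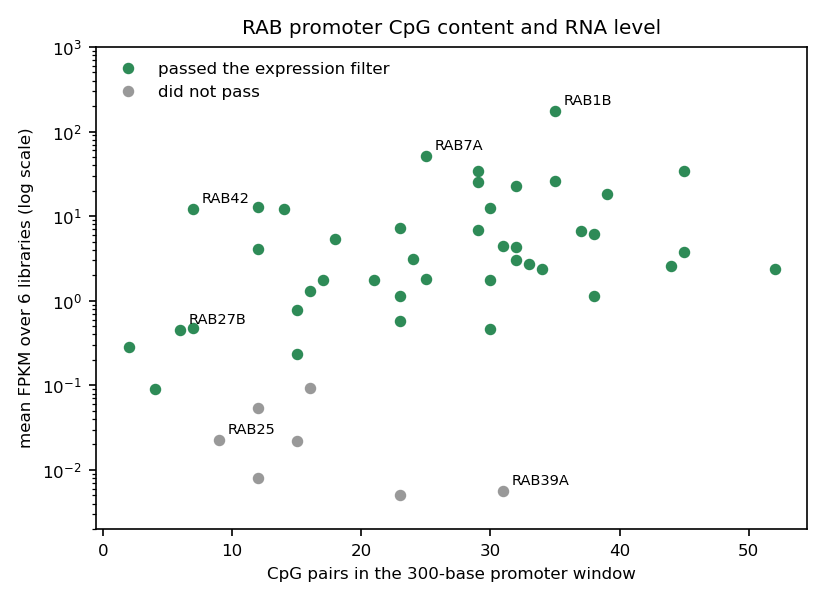
CpG pairs in the 300-base promoter window (horizontal axis) against mean FPKM over 6 libraries (vertical, log axis) for 49 RAB genes with a window and a mean above 0. Green points passed the expression filter and grey points did not. RAB1B and RAB7A lie at 35 and 25 CpG pairs, RAB25 and RAB27B at 9 and 6, and RAB42 and RAB39A depart from the medians. RAB9B, at 0 FPKM, cannot be drawn.

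No RAB gene passed the threshold between DDX18 and plvx cells. Of the 63 members, 50 passed the filter on low counts and were tested, and 0 of them had an adjusted p under 0.05 by edgeR, where 0.0528% of all 15144 genes tested did. DESeq2 and limma-voom also called 0 of the 50. The smallest adjusted p was 0.841. At an unadjusted p under 0.05 there were 2 RAB genes (4%), RAB7A and RAB17, against 5.69% of all genes tested, so the share of RAB genes was no larger than the background.

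The log2 fold changes of DDX18 over plvx ran from -0.76 to 0.65 over the 50 genes. Of the 50, 26 were above 0 (52%), where 49.8% of all genes tested were. Their median was 0.02, against 0.00 over all genes tested. The groups did not overlap in 7 RAB genes (14%), where 11.5% of all genes tested showed no overlap. All DDX18 libraries lay above all plvx libraries in 6 of them (5.83% of all genes) and below in 1 (5.71% of all genes). Summed over the 63 genes, RAB transcripts made up 2616.2, 2704.9 and 2757.0 CPM in the DDX18 libraries and 2731.3, 2479.0 and 2587.6 CPM in the plvx libraries, and these sums overlapped. The 95% confidence intervals, which are not adjusted for the number of genes, had a median half-width of 0.33 on the log2 scale, or 1.26-fold. With 3 libraries per group, smaller differences in a typical RAB gene could not be told from 0 even before adjustment. Passing the adjusted threshold takes more than this. RAB7A, with a log2 fold change of 0.33 and an interval above 0, had an adjusted p of 0.841.

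**Figure D3:**
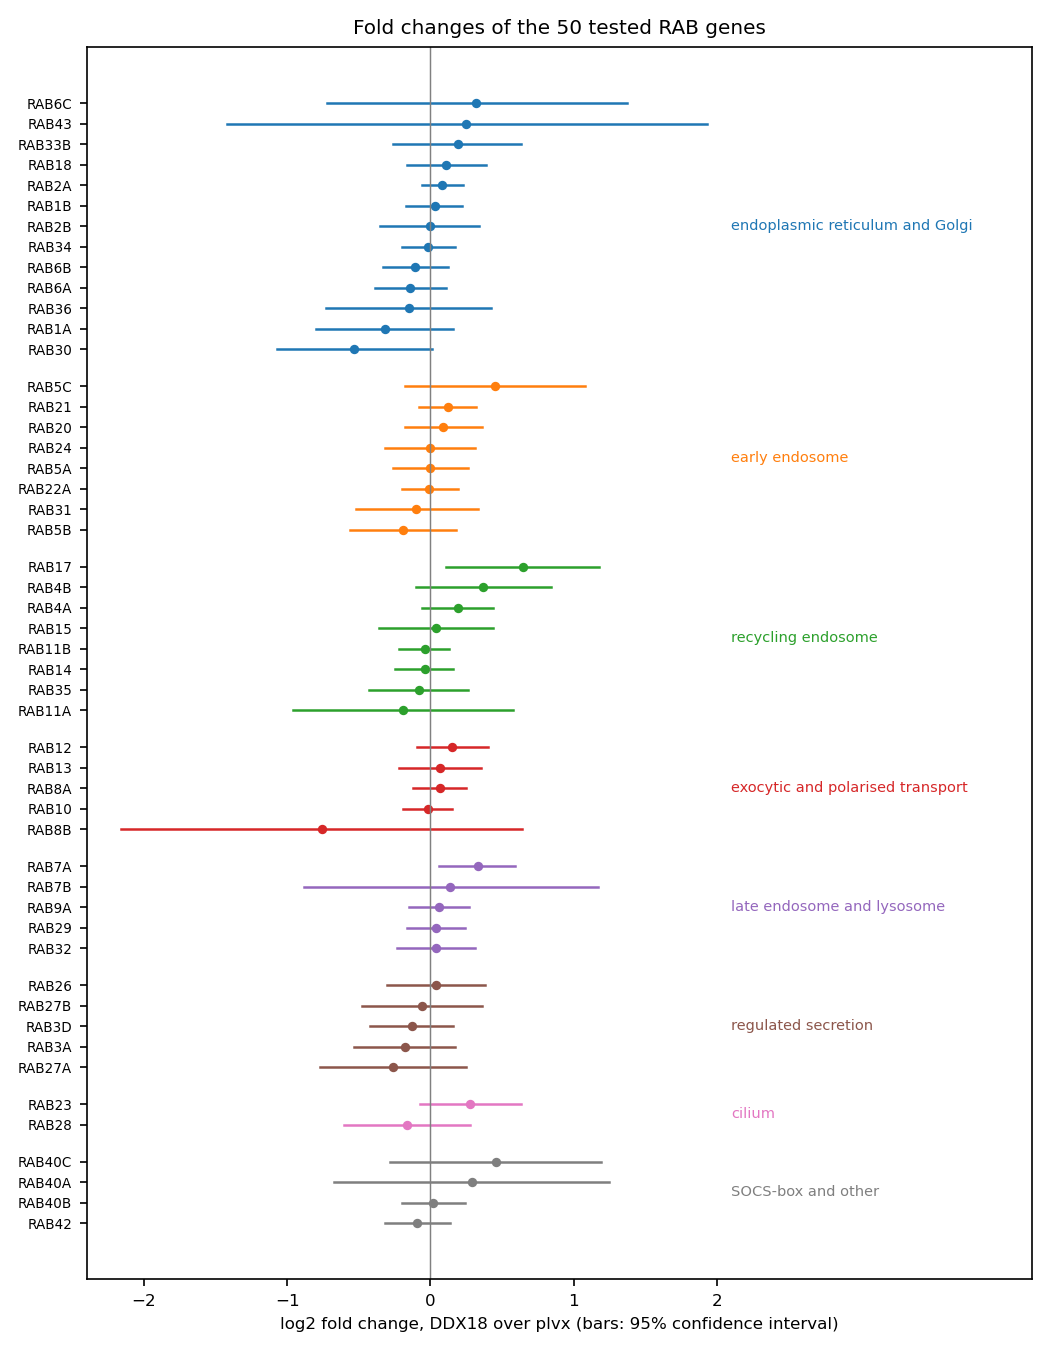
Log2 fold change of DDX18 over plvx for the 50 tested RAB genes (points) with the 95% confidence interval of the edgeR fit (bars), grouped and coloured by compartment. The points run from -0.76 (RAB8B) to 0.65 (RAB17), all intervals but those of RAB7A and RAB17 include 0, and the widest belong to RAB43 and RAB8B.

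In the group of the endoplasmic reticulum and Golgi, 13 of 18 members were tested and 0 were called by edgeR (0 also at an unadjusted p under 0.05). Of the 13, 6 had positive and 7 negative fold changes. RAB1B had a log2 fold change of 0.03, with an interval of -0.17 to 0.22. RAB1A, its close paralogue, was at 53.3, 64.5 and 59.7 CPM with DDX18 and at 100.4, 56.1 and 64.8 CPM with plvx. Its lower mean with DDX18 (log2 fold change -0.32, adjusted p = 0.891) rested on plvx replicate 1, without which the log2 fold change was -0.03. Per length, RAB1B supplied 93.3 ± 0.289% of the FPKM of the pair in DDX18 cells and 91.7 ± 2.08% in plvx cells (SD, n = 3). RAB1A shares 22.9% of its exon bases with CEP68 on the other strand. CEP68 held 394, 319 and 251 counts with DDX18 and 294, 351 and 341 counts with plvx. The part of CEP68 reads in the RAB1A values was not tested. RAB2A, which acts at the Golgi and in fusion with lysosomes, was at 114.8, 116.7 and 113.0 CPM with DDX18 and at 109.2, 106.7 and 109.6 CPM with plvx. Its groups did not overlap, but the difference was 0.08 on the log2 scale (interval -0.06 to 0.23, adjusted p = 0.905). RAB2A supplied 88.6% of the FPKM of the RAB2 pair with DDX18 and 88.0% with plvx.

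RAB30, a Golgi GTPase (ENSG00000137502, chromosome 11, 82973133 to 83071923, minus strand, GRCh38), was the RAB gene whose DDX18 libraries all lay below the plvx libraries. It was at 7.94, 14.8 and 14.9 CPM with DDX18 and at 16.1, 18.4 and 19.8 CPM with plvx. The log2 fold change was -0.53 (SE 0.23, interval -1.07 to 0.01, adjusted p = 0.86). DDX18 replicate 1 was the lowest library, and without it the log2 fold change was -0.29.

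The early endosome group had 8 tested members of 8, 0 called by edgeR and 0 at an unadjusted p under 0.05. Of the 8, 3 had positive and 5 negative fold changes. RAB5 proteins drive the fusion of early endosomes. RAB5C was at 95.4, 190.4 and 178.5 CPM with DDX18 and at 110.8, 86.5 and 142.3 CPM with plvx. DDX18 replicates 2 and 3 lay above all plvx libraries, and DDX18 replicate 1 among them (log2 fold change 0.45, SE 0.27, adjusted p = 0.875). Leaving out DDX18 replicate 1 raised this to 0.70, and leaving out DDX18 replicate 2 or plvx replicate 2 brought it to 0.27 or 0.29. RAB5A was at 20.8, 24.3 and 19.5 CPM with DDX18 and at 22.3, 20.4 and 22.0 CPM with plvx, with a log2 fold change of 0.00 and an interval of -0.26 to 0.26. Per length RAB5C supplied 86.7 ± 4.48% of RAB5 FPKM in DDX18 cells and 82.6 ± 3.75% in plvx cells. RAB21, known for the endocytosis of integrins, was at 33.6, 31.3 and 29.5 CPM with DDX18 and at 29.2, 28.4 and 29.2 CPM with plvx. Its groups did not overlap, with a log2 fold change of 0.12 (adjusted p = 0.901), or 0.06 without DDX18 replicate 1.

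In the recycling endosome group, 8 of 9 members were tested and 0 were called by edgeR. An unadjusted p under 0.05 was found in 5.69% of all genes tested and in 1 member of this group. That gene was RAB17, a GTPase of transcytosis and recycling in polarised epithelia (ENSG00000124839, chromosome 2, 237574322 to 237601614, minus strand). RAB17 was at 4.40, 7.36 and 6.35 CPM with DDX18 (71, 118 and 101 counts) and at 4.38, 3.99 and 3.20 CPM with plvx (68, 65 and 52 counts). DDX18 replicate 1 and plvx replicate 1 nearly touched, while the other DDX18 libraries lay clearly above. The log2 fold change was 0.65 (SE 0.23, interval 0.11 to 1.18, unadjusted p = 0.0246, adjusted p = 0.841).

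RAB4 proteins serve rapid recycling from early endosomes. RAB4A was at 42.0, 44.0 and 40.9 CPM with DDX18 and at 31.7, 39.7 and 39.8 CPM with plvx, without overlap (log2 fold change 0.19, adjusted p = 0.868, and 0.09 on the log2 scale without plvx replicate 1). RAB4B was at 2.67, 3.24 and 2.89 CPM with DDX18 and at 2.58, 1.90 and 2.34 CPM with plvx, also without overlap (log2 fold change 0.37, adjusted p = 0.862). RAB4B rests on 31 to 52 counts per library. It shares 27.4% of its exon bases with the readthrough gene RAB4B-EGLN2, which held 102, 290 and 160 counts with DDX18 and 213, 273 and 207 counts with plvx, and the part of that gene in the RAB4B values was not tested. RAB11A, the main GTPase of recycling endosomes, was at 86.6, 45.5 and 44.1 CPM with DDX18 and at 75.7, 40.9 and 84.1 CPM with plvx. Its libraries stood at a low and a high level that cut across the groups, and its log2 fold change of -0.19 ran from -0.58 (without DDX18 replicate 1) to 0.01 (without plvx replicate 3). RAB11B, its paralogue, varied by 1.12 times between the highest and lowest library, so RAB11A supplied from 16.8% to 31.3% of the FPKM of RAB11A, RAB11B and RAB25 together. RAB14 had a log2 fold change of -0.04 (interval -0.25 to 0.16).

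**Figure D4:**
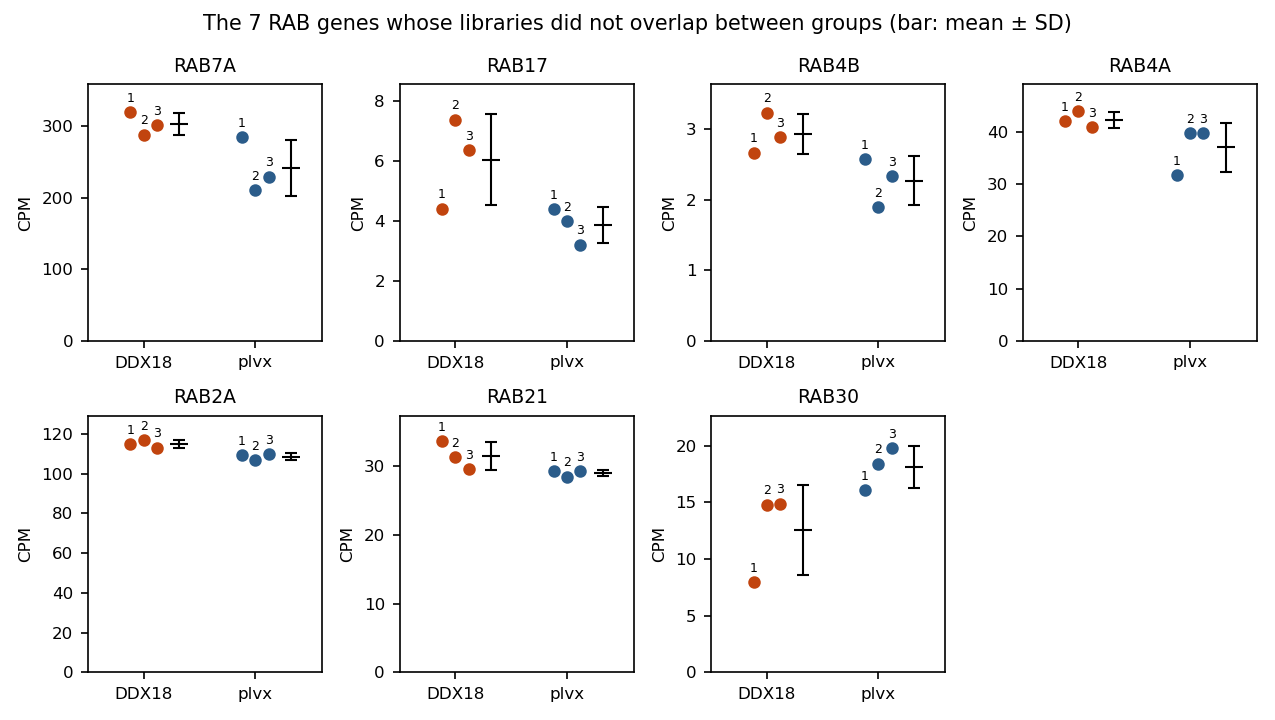
CPM of the 7 RAB genes whose groups did not overlap, with DDX18 libraries left and plvx libraries right, numbered by replicate. Bars are the mean ± SD of 3 libraries. DDX18 points lie above plvx points in 6 genes and below in RAB30. In RAB17, RAB21, RAB7A, RAB4A and RAB4B the nearest libraries of the groups almost meet.

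Exocytic and polarised transport was represented by 5 tested genes of 5, with 0 called by edgeR and 0 at an unadjusted p under 0.05. RAB8A, which directs vesicles to the plasma membrane and the cilium, was at 87.4, 89.9 and 86.9 CPM with DDX18 and at 91.2, 78.1 and 82.6 CPM with plvx (log2 fold change 0.07, interval -0.12 to 0.25). RAB10 was at 132.1, 136.3 and 121.1 CPM with DDX18 and at 128.8, 127.9 and 139.0 CPM with plvx (log2 fold change -0.02, interval -0.19 to 0.15). RAB12, which acts in recycling and in delivery to lysosomes, was at 30.2, 27.6 and 26.8 CPM with DDX18 and at 23.2, 24.6 and 28.1 CPM with plvx. These 3 genes overlapped between the groups.

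RAB8B, the paralogue of RAB8A (ENSG00000166128, chromosome 15, 63189469 to 63267782, plus strand), had the lowest fold change of the family. It was at 10.8, 2.12 and 2.58 CPM with DDX18 (174, 34 and 41 counts) and at 6.70, 13.0 and 6.59 CPM with plvx (104, 211 and 107 counts). DDX18 replicates 2 and 3 lay below the plvx libraries, whereas DDX18 replicate 1 lay among them. The log2 fold change was -0.76 with a wide interval of -2.16 to 0.64 (adjusted p = 0.917), and single libraries moved it in both directions. Leaving out DDX18 replicate 1 gave -1.90 (adjusted p = 0.564). Leaving out DDX18 replicate 2 gave -0.39, DDX18 replicate 3 gave -0.44, and plvx replicate 2 gave -0.36.

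Of the late endosome and lysosome group, 5 of 7 members were tested and 0 were called by edgeR. An unadjusted p under 0.05 was found in 1 of the 5, and in 5.69% of all genes tested. All 5 had positive fold changes, from 0.04 to 0.33 on the log2 scale, where 49.8% of all genes tested were positive. RAB32 did not keep its sign, at -0.01 without plvx replicate 2 and -0.03 without plvx replicate 3. RAB7A controls the fusion of late endosomes and autophagosomes with lysosomes (ENSG00000075785, chromosome 3, 128726122 to 128814796, plus strand). It was at 319.3, 287.7 and 300.7 CPM with DDX18 (5149, 4611 and 4785 counts) and at 284.4, 210.4 and 228.8 CPM with plvx (4414, 3426 and 3716 counts). The groups did not overlap, although plvx replicate 1 came within a few CPM of DDX18 replicate 2. The log2 fold change was 0.33 (SE 0.11, interval 0.06 to 0.59, unadjusted p = 0.0216, adjusted p = 0.841), and it was 0.24 to 0.46 when single libraries were left out. RAB7A shares no exon bases with another gene of the table. RAB32 was at 41.0, 43.1 and 43.4 CPM with DDX18 and at 48.4, 38.4 and 37.1 CPM with plvx. RAB9A, which returns mannose 6-phosphate receptors to the Golgi, had a log2 fold change of 0.06 (interval -0.15 to 0.27), and its paralogue RAB9B was at 0.

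Regulated secretion had 8 members, of which 5 were tested, 0 called by edgeR and 0 at an unadjusted p under 0.05. The fold change was above 0 in 1 of the 5 and below 0 in 4. RAB3D, the zymogen granule GTPase of acinar cells, was at 25.2, 19.9 and 26.9 CPM with DDX18 and at 25.6, 26.3 and 27.1 CPM with plvx (log2 fold change -0.13, interval -0.42 to 0.16, and -0.22 without DDX18 replicate 3 or -0.01 without DDX18 replicate 2). It supplied 75.2 ± 4.71% of RAB3 FPKM with DDX18 and 74.8 ± 2.05% with plvx, with RAB3A making up most of the remainder. RAB27A, which docks secretory lysosomes and exosomes, was at 4.77, 6.24 and 5.59 CPM with DDX18 and at 5.28, 8.60 and 5.97 CPM with plvx. Its log2 fold change of -0.26 was -0.02 without plvx replicate 2, -0.17 without DDX18 replicate 1 and -0.40 without plvx replicate 1. RAB27B, of secretory granules, was at 3.41, 4.06 and 3.33 CPM with DDX18 and at 3.29, 3.81 and 4.19 CPM with plvx. Both RAB27 genes overlapped between the groups.

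Both cilium genes were tested and neither was called by edgeR (0 at an unadjusted p under 0.05). RAB23, a regulator of Hedgehog signalling, was at 13.5, 13.4 and 13.8 CPM with DDX18 and at 9.34, 10.7 and 13.5 CPM with plvx (log2 fold change 0.28, adjusted p = 0.861, with 0.16 without plvx replicate 1 and 0.43 without plvx replicate 3). RAB23 shares 57.7% of its exon bases with BAG2 on the other strand, which was at 61.9, 69.8 and 54.8 CPM with DDX18 and at 62.1, 61.5 and 62.9 CPM with plvx. The sources used here do not give the strand setting of the counts, so the part of BAG2 reads in the RAB23 values was not tested. The RAB40 proteins carry a SOCS box that binds a ubiquitin ligase. RAB40C was at 42.2, 19.3 and 46.2 CPM with DDX18 and at 32.1, 20.1 and 26.5 CPM with plvx (log2 fold change 0.46, SE 0.32, adjusted p = 0.898). It became 0.76 when DDX18 replicate 2 was left out, 0.23 when DDX18 replicate 3 was, and 0.30 when plvx replicate 2 was. The lowest library of each group was replicate 2, and the groups overlapped. In that last group, of 5 members with 4 tested, 0 were called by edgeR and 0 had an unadjusted p under 0.05.

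Several RAB genes spread widely over the 6 libraries. Among the 42 tested RAB genes that averaged 5 CPM or more in a group, 7 (16.7%) had a highest library at least 2 times the lowest, where 7.18% of 11254 genes at that level did. They were RAB43, RAB8B, RAB30, RAB40C, RAB17, RAB5C and RAB11A. RAB17 entered only through its DDX18 mean (6.04 CPM, against 3.86 CPM with plvx). The ratio is taken over all 6 libraries, so it also holds differences between the groups. The difference between these shares was not tested. RAB43, RAB8B, RAB40C and RAB11A reached that ratio within a group, whereas RAB17, RAB30 and RAB5C reached it only between a DDX18 and a plvx library. RAB5C fell just short of it within the DDX18 libraries (95.4 to 190.4 CPM). The median ratio of highest to lowest library was 1.31 over the RAB genes and 1.30 over all genes, so the typical RAB gene was as even as other genes.

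RAB43 (ENSG00000172780, chromosome 3, 129087569 to 129122801, minus strand), a Golgi GTPase, spread most, with a ratio of 10.4. It had 219, 771 and 633 counts in the DDX18 libraries (13.6, 48.1 and 39.8 CPM) and 655, 75 and 623 counts in the plvx libraries (42.2, 4.61 and 38.4 CPM). One library of each group was far below the other 2, so its log2 fold change of 0.25 had an interval of -1.42 to 1.93. The direction turned without DDX18 replicate 2 (-0.09) and without plvx replicate 2 (-0.25), and the log2 fold change reached 0.65 without plvx replicate 1. RAB43 shares 79.3% of its exon bases with the readthrough gene ISY1-RAB43, which had 0, 0 and 292 counts with DDX18 and 365, 9 and 0 counts with plvx. Added together the rows held 219, 771 and 925 counts with DDX18 and 1020, 84 and 623 counts with plvx, so DDX18 replicate 1 and plvx replicate 2 were low in the sum as well.

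RAB5C shares 28.8% of its exon bases with a coding gene listed as AC099811.2, which had 305, 134 and 268 counts with DDX18 and 59, 204 and 207 counts with plvx. The sums of these rows were 1843, 3185 and 3108 counts with DDX18 and 1778, 1613 and 2518 counts with plvx, with the same libraries high as in RAB5C alone. The libraries that stood apart differed from gene to gene. DDX18 replicate 1 was the low DDX18 library in RAB43, RAB30 and RAB5C and the high one in RAB8B and RAB11A. DDX18 replicate 2 was the low DDX18 library in RAB40C.

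**Figure D5:**
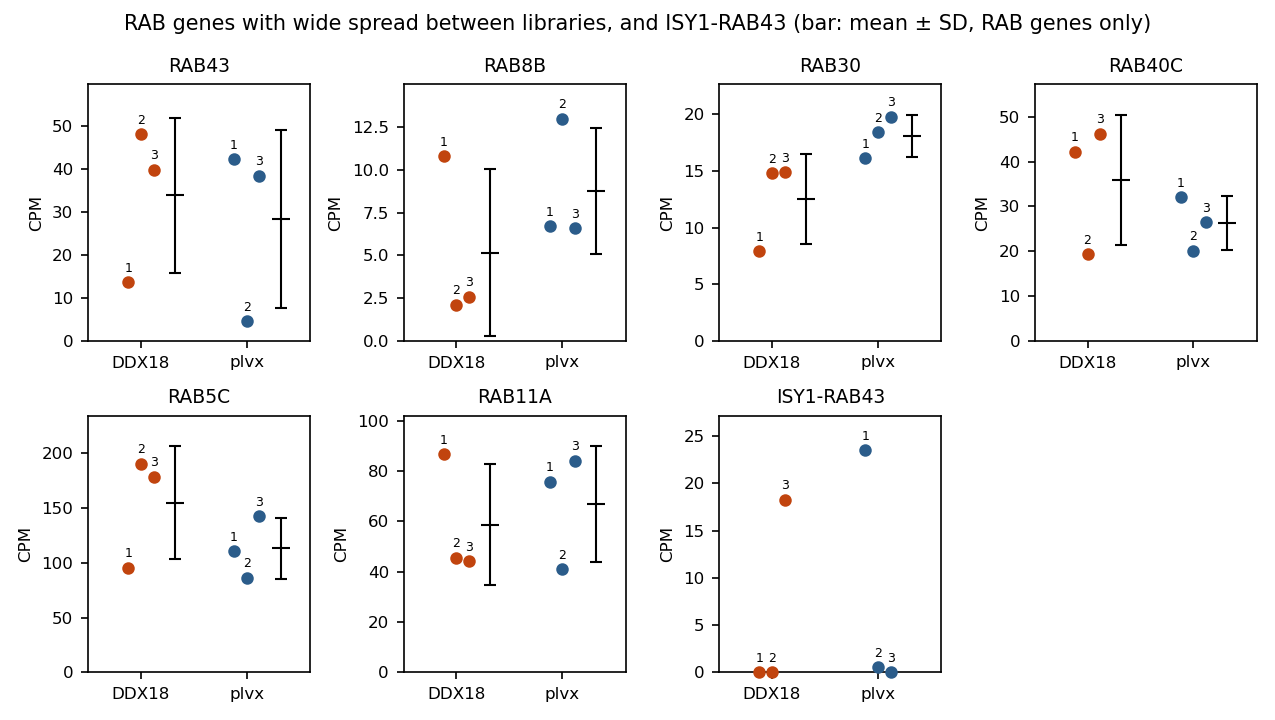
CPM of 6 RAB genes with a wide spread between libraries and of the readthrough gene ISY1-RAB43, with DDX18 libraries left and plvx libraries right, numbered by replicate. Bars are the mean ± SD of 3 libraries for the RAB genes. RAB43 runs from 4.61 to 48.1 CPM with 1 low library in each group, and ISY1-RAB43 is at or near 0 in 4 libraries.

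The proteins that load, prenylate, inactivate and read out RAB GTPases were also compared. Of 153 such genes in 5 lists, 145 were tested, 0 were called in either direction by edgeR, by DESeq2 or by limma-voom, and 9 had an unadjusted p under 0.05 (6.21%, against 5.69% of all genes), 4 of them higher and 5 lower with DDX18. Among the 8 genes of prenylation and GDI cycling, 3 had positive and 5 negative fold changes, and 0 had an unadjusted p under 0.05. CHML, a RAB escort protein, was at 30.1, 28.5 and 26.6 CPM with DDX18 and at 28.3, 45.3 and 35.5 CPM with plvx (log2 fold change -0.36, adjusted p = 0.86, and -0.17 without plvx replicate 2). RABGGTB, a subunit of the geranylgeranyl transferase that prenylates RAB proteins, was at 26.0, 36.7 and 28.9 CPM with DDX18 and at 29.4, 39.2 and 38.2 CPM with plvx (log2 fold change -0.22, adjusted p = 0.901, with -0.12 without DDX18 replicate 1 and -0.38 without DDX18 replicate 2).

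Of 52 tested exchange factors, which load GTP, 25 had positive and 27 negative fold changes. At an unadjusted p under 0.05 there were 3 (5.77%), all lower, against 5.69% of all genes tested. TRAPPC4, a subunit of the TRAPP complex that activates RAB1, had the smallest p of these lists. It was at 30.8, 29.8 and 33.4 CPM with DDX18 and at 47.9, 39.1 and 46.6 CPM with plvx, without overlap (log2 fold change -0.51, SE 0.11, adjusted p = 0.539). DENND1B, an exchange factor of RAB35, was at 3.72, 3.87 and 3.08 CPM with DDX18 and at 4.06, 6.02 and 5.05 CPM with plvx (log2 fold change -0.50, adjusted p = 0.86). RAB1A and RAB1B, on which TRAPP acts, and RAB35 (127.2, 87.2 and 130.1 CPM with DDX18, 124.7, 124.9 and 115.3 CPM with plvx) overlapped between the groups.

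Of 33 tested GTPase-activating proteins, 16 had positive and 17 negative fold changes. At an unadjusted p under 0.05 there was 1 (3.03%), which was higher, against 5.69% of all genes tested. TBC1D20, which acts on RAB1 and RAB18, was at 20.9, 17.3 and 19.7 CPM with DDX18 and at 15.9, 16.6 and 15.7 CPM with plvx (log2 fold change 0.26, adjusted p = 0.86). TBC1D2, which acts on RAB7, was at 64.1, 62.3 and 63.7 CPM with DDX18 and at 61.5, 56.3 and 51.2 CPM with plvx (log2 fold change 0.17, adjusted p = 0.86, and 0.10 on the log2 scale without plvx replicate 3). In both genes the DDX18 libraries lay above the plvx libraries without passing the threshold.

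The 44 tested effectors split into 21 with positive and 23 with negative fold changes. An unadjusted p under 0.05 was found in 5 of them (11.4%), 3 higher and 2 lower, against 5.69% of all genes tested. The difference between these shares was not tested. RAB11FIP5, which couples RAB11 to recycling vesicles, was at 101.8, 60.2 and 94.6 CPM with DDX18 and at 54.3, 62.3 and 49.3 CPM with plvx. DDX18 replicate 2 lay among the plvx libraries (log2 fold change 0.63, SE 0.19, adjusted p = 0.811). GCC2, a Golgi tether that binds RAB6 and RAB9, was at 8.74, 7.67 and 7.29 CPM with DDX18 and at 8.63, 14.2 and 12.1 CPM with plvx (log2 fold change -0.56, adjusted p = 0.841). Of the 8 tethers of the CORVET and HOPS complexes, which bring endosomes together under RAB5 and RAB7, 3 had positive and 5 negative fold changes, and 0 had an unadjusted p under 0.05. VPS39 was at 39.0, 39.5 and 40.8 CPM with DDX18 and at 36.2, 63.8 and 69.3 CPM with plvx, and plvx replicate 1 stood with the DDX18 libraries (adjusted p = 0.86, and 0.0698 without plvx replicate 1). VPS11 was at 47.4, 45.1 and 48.4 CPM with DDX18 and at 52.6, 51.9 and 54.0 CPM with plvx, without overlap (log2 fold change -0.17, adjusted p = 0.86).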

How the data were processed

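The counts are raw counts per gene and library as the authors deposited them. The FPKM values were also deposited by the authors, per the file headers, and equal the count over 1 length per gene and the column total in 9997 genes with at least 100 counts in each library (largest relative spread of the length 9.12e-06). The sources used here do not give the aligner, the counter or the strand setting. Mouse builds (GRCm38, mm10) are named in the submitters' processing notes, but the rows are human Ensembl genes, and 97.6% of the 58039 found in GENCODE 29 have its GRCh38 start and end. Coordinates were therefore read as GRCh38. Of the 63 RAB genes, 30 share exon bases with another gene of the table.

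Counts were tested with edgeR 4.0.16 (R 4.3.3), using filterByExpr (15144 genes kept), TMM scaling, the quasi-likelihood F-test and Benjamini-Hochberg adjustment over all genes tested, with a threshold of 0.05. Every adjusted p is from this fit unless another tool is named. The common coefficient of variation was 15.9%, and replicate pairs differed beyond counting noise (chi-square 12.6 to 20.4 per degree of freedom). The code was tested on simulated data. Alternatives were other scalings and filters, DESeq2 1.42.0, limma-voom (limma 3.58.1), a block for the replicate number, leaving out each library, and limma on log2(FPKM) with a pseudocount of 1 or 0.1.

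The members and lists were chosen with earlier results of these data known. Library values are printed for the 10 RAB genes with the smallest p, those without overlap and a log2 fold change of at least 0.3, the 6 with the highest FPKM, the 4 with the widest spread, 10 fixed genes, and the 2 genes with the smallest p of each of the 5 lists. RAB2A, RAB21, RAB35 and RAB43P1 were added after their values were seen, and RAB6D had no compartment assigned.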

Additional observations from a re-analysis of the deposited data

How the results depend on the processing

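The count of 0 called RAB genes and of 0 called RAB regulators held in all alternatives run. The DDX18 log2 fold change was 1.00 to 1.12 when single libraries were left out, with an adjusted p above 0.05 without DDX18 replicate 2 (0.0544) and without plvx replicate 2 (0.0643). Over all genes 8 were called, against 39 by DESeq2, 4 with no expression filter and 3 to 14 when single libraries were left out (14 without plvx replicate 1, 3 without plvx replicate 2, and 5 without DDX18 replicate 2 or DDX18 replicate 3). With the replicate number as a block the DDX18 log2 fold change was 1.06 (adjusted p = 0.153) and 1 gene was called. The numbers pair nothing in the data, since same-numbered libraries correlated at -0.087 to 0.019 in their deviations, and the block changed no RAB call. RAB genes at an unadjusted p under 0.05 numbered 2, against 3 by DESeq2, by limma-voom and with the replicate number as a block. They numbered 1 with the filter of 5 CPM in 3 libraries and 1 to 3 when single libraries were left out (1 without plvx replicate 3). The RAB genes without overlap were 10 to 14 (14 without DDX18 replicate 3, 12 without plvx replicate 1 or plvx replicate 3), and the median log2 fold change of RAB genes -0.01 to 0.07 (0.07 without plvx replicate 1), when single libraries were left out. Without a library, 19.6% to 25.3% of all genes tested did not overlap, against 20% to 28% of the RAB genes, since fewer samples overlap less by construction. The filter of 5 CPM in 3 libraries left RAB17 out of the test. The cause of the remaining changes was not tested. No called direction turned. Changes of sign were read only in the tested RAB genes whose library values are printed, none of which was called. When single libraries were left out, their log2 fold changes changed sign in RAB1B (-0.04 to 0.08), RAB10 (-0.06 to 0.03), RAB11A (-0.58 to 0.01), RAB14 (-0.12 to 0.01), RAB27B (-0.16 to 0.02), RAB32 (-0.03 to 0.17), RAB35 (-0.18 to 0.08), RAB43 (-0.25 to 0.65) and RAB5A (-0.10 to 0.06). The other tested RAB genes were not read in this way. RAB5A, at 0.00, was also at 0.01 without scaling beyond totals and with both FPKM pseudocounts, and at 0.00 with either other filter. With limma on FPKM and a pseudocount of 1, fold changes of low genes were smaller (RAB17 0.21, RAB30 -0.23, RAB4B 0.12). Without the 4 RAB genes of widest spread, or without those that share at least 10% of their exon bases, both chosen after seeing the data, the median stayed at 0.02. At this depth the 13 untested genes had at most 7 counts in any library.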

Other observations

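Rows outside the family rule that share sequence with its members were read as well. RAB1C, a processed pseudogene named after RAB1, had 66, 105 and 106 counts in DDX18 libraries and 99, 115 and 91 counts in plvx libraries. RAB43P1, a processed pseudogene of RAB43, had 113, 104 and 104 counts in DDX18 libraries and 79, 83 and 84 counts in plvx libraries, without overlap (log2 fold change 0.38, SE 0.13, adjusted p = 0.841 by edgeR). The low libraries of RAB43 itself were not low in RAB43P1. RAB40AL, a coding paralogue of RAB40A that the symbol rule leaves out, had 1, 0 and 0 counts in DDX18 libraries and 1, 5 and 1 counts in plvx libraries. Reads of near-identical copies may have been divided between rows by the counting, and their part in these values was not tested.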
